A study of Mus musculus with 36 samples.

Results

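Left ventricles of SHAM-operated mice taken at ZT23 were compared with left ventricles of SHAM-operated mice taken at ZT19, the last 4-h step of the 6 times sampled. The comparison used 6 of the 36 arrays of the series, 3 mice at ZT23 and 3 mice at ZT19, chosen by the surgery and time in the sample titles. ZT is zeitgeber time, which by convention counts hours from lights on. In the study, mice had either transverse aortic constriction (TAC), a narrowing of the aorta against which the left ventricle must pump, or a SHAM operation without it. All mice lived 8 weeks after surgery and were killed at ZT03, ZT07, ZT11, ZT15, ZT19 or ZT23, with 3 mice per surgery and time, so that 18 arrays were SHAM and 18 were TAC. The design describes the mice of a group as biological replicates, and each replicate was 1 mouse on 1 single-channel Affymetrix array. The labels used here name no strain, sex, age at surgery or light schedule.

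The values are relative. Across the 18 SHAM arrays each probe set was centred on a median of 0, and likewise across the 18 TAC arrays, so the size of a value says how far an array lies from the middle of its own surgery and nothing about how abundant a transcript is. For the same reason the presence of cardiomyocyte transcripts could not be checked as a level. The base of the logarithm is not given in the labels; values were read as log2, and every fold rests on that reading.

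The mammalian clock is a feedback loop of transcription. BMAL1, encoded by Arntl, pairs with CLOCK or NPAS2 and activates genes that carry E-boxes, among them the Per and Cry genes, whose products block BMAL1 and CLOCK, and the genes Nr1d1 and Nr1d2, whose products REV-ERB alpha and beta repress Arntl through ROR elements. A further layer of output factors, such as DBP, TEF, HLF and USP2, carries the rhythm to other genes, and the heart holds such a clock of its own.

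Few genes passed the test for a change between ZT19 and ZT23 in the SHAM heart, and the clock genes Arntl and Nr1d1 were among them. Of 12393 genes, 9 (0.0726%) passed the limma test at a Benjamini-Hochberg adjusted p under 0.05 with the spread of all 18 SHAM arrays. Higher at ZT23 were 4 genes (0.0323%), namely Adam19, Slc41a3, Nr1d1 and Arntl. Lower were 5 genes (0.0403%), namely Ier3, Herpud1, Usp2, Dusp16 and Ciapin1. Quantile normalization gave 3 higher and 8 lower genes. The 3 mice at ZT23 and the 3 mice at ZT19 did not overlap in any of the 9 genes, as they did not in 10.2% of all genes. The median difference over all genes was 0.002, and 89.2% of the genes differed by less than 0.1. In tissue as mixed as a ventricle, fewer cells of a type and less RNA per cell cannot be told apart.

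**Figure D1:**
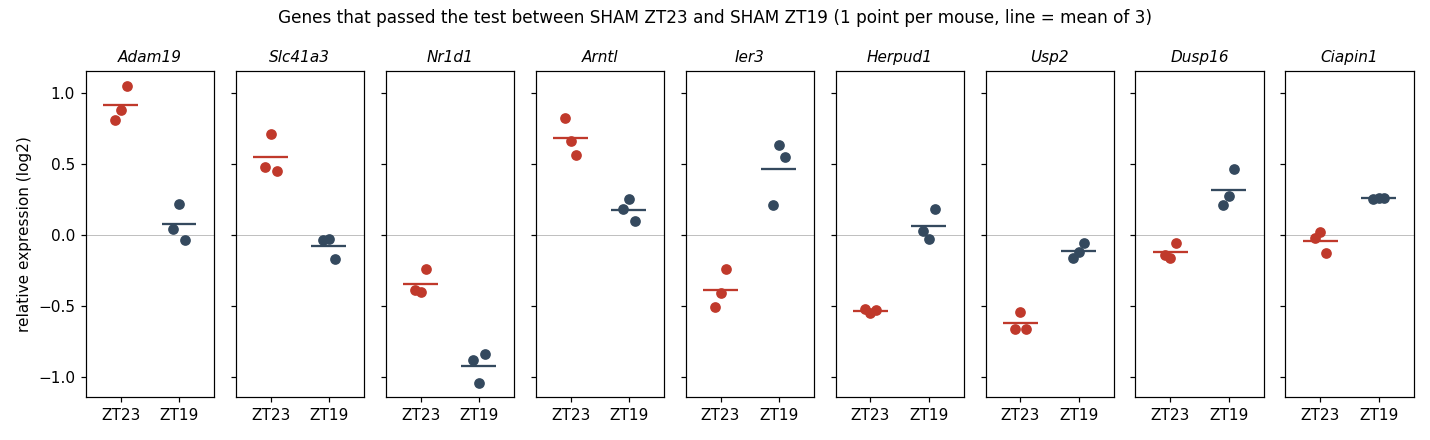
Relative expression (log2, vertical axis) of the 9 genes that passed the test, 1 point per mouse, with a line at the mean of 3 mice, for SHAM ZT23 (left, red) and SHAM ZT19 (right, dark). In every panel the points of the 2 times are apart, by most in Adam19 (difference 0.84) and Ier3 (-0.84).

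Promoter windows are shown for 3 of the 9 genes, because these were the windows with a match to one of 5 motif kinds tied to the clock or to stress. The RefSeq table (GRCm38.p6) held 12 windows for the 9 genes, each of 300 bases, from 250 before to 50 after an annotated start. Capitals mark the match and all sequences run 5′ to 3′ on the gene's strand.
Arntl, chr7:113207261-113207560, plus strand: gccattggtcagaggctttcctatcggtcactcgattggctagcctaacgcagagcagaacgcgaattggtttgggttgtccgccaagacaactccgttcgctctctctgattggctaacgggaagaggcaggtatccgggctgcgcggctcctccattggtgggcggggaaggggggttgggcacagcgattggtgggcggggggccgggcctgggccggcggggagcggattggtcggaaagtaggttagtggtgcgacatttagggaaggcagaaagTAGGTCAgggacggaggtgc
Adam19, chr11:46054252-46054551, plus strand: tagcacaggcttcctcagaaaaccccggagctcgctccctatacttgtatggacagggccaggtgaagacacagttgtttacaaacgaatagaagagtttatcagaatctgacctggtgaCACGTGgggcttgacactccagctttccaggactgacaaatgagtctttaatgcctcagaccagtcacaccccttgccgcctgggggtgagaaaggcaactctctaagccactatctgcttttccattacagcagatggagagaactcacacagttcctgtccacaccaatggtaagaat
Slc41a3, chr6:90618996-90619295, plus strand: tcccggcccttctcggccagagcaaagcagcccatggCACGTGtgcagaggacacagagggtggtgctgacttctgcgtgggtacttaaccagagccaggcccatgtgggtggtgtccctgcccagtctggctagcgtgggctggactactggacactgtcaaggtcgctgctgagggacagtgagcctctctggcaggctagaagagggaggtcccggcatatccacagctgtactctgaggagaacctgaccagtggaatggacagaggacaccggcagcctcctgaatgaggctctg
The Arntl window held the ROR element TAGGTCA, 30 bases after its start, and 2.61% of the 32851 windows in the table held these letters on either strand. The Adam19 window shown held the E-box CACGTG 130 bases before its start and the Slc41a3 window held it 213 bases before, as 7.15% of all windows did on either strand. The other 9 windows of the 9 genes did not match these letters. They include those of Nr1d1 and Usp2, and the windows of Arntl and Adam19 at other annotated starts. They also lacked the D-box (TTATGTAA or TTATGCAA, 1.66% of all windows), the cAMP element TGACGTCA (1.79%) and the heat shock element (0.603%). The windows of Adam19 and Slc41a3 were chosen for display after the values had been seen. A match describes the letters alone.

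In the core loop, the activator gene Arntl and the repressor gene Nr1d1 both rose. Arntl had relative log2 values of 0.82, 0.66 and 0.56 at ZT23, against 0.18, 0.25 and 0.10 at ZT19. All 3 ZT23 hearts lay above all ZT19 hearts, and the difference was 0.50 ± 0.07 (SE, n = 3 each), a 1.42-fold rise with an adjusted p of 0.00352 in limma. Under quantile normalization the difference was 0.85 and did not pass (adjusted p = 0.225). ZT23 was the time of its highest mean in SHAM hearts. Its mean at ZT15 was -0.21 ± 0.13 (SD, n = 3), and the step to ZT19 had also passed (0.39, adjusted p = 0.0206).

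Nr1d1 stood at -0.39, -0.40 and -0.24 at ZT23, against -0.88, -1.04 and -0.84 at ZT19. The difference of 0.58 ± 0.08 (SE, n = 3 each) was a 1.49-fold rise (limma, adjusted p = 0.00364), from the lowest mean of the day. The values at ZT23 were still below the middle of the SHAM arrays, and the larger climb followed in the next step, ZT03 minus ZT23, at 0.99 (adjusted p = 1.08e-05), the only call of that step. Nr1d1 overlaps Thra, a thyroid hormone receptor gene, in the RefSeq annotation. Thra differed by 0.20 ± 0.05 (SE, n = 3 each) and did not pass (adjusted p = 0.259).

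Nr1d2, the paralog of Nr1d1 and a repressor of the same targets, had the opposite sign. Its values were -0.78, -0.83 and -0.80 at ZT23, against -0.35, -0.41 and -0.20 at ZT19. The groups were apart, but the difference of -0.49 ± 0.11 (SE, n = 3 each) did not pass (limma, adjusted p = 0.215), and its 2 probe sets gave -0.66 and -0.32. With the 6 arrays of ZT23 and ZT19 alone, Nr1d2 passed.

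The other members of the core clock list did not pass. Npas2, a partner of BMAL1, had 0.14, 0.18 and 0.19 at ZT23, against -0.08, 0.02 and 0.00 at ZT19 (adjusted p = 0.955). Clock, the other partner, had 0.23, 0.19 and 0.21 at ZT23, against 0.07, 0.12 and 0.15 at ZT19 (adjusted p = 1). Neither gene overlapped between the times. Of the repressors, Per2 differed by -0.21 ± 0.07, Per3 by -0.15 ± 0.05, Cry1 by -0.19 ± 0.06 and Bhlhe41 by -0.16 ± 0.06 (SE, n = 3 each), with every ZT23 heart below every ZT19 heart. The 3 probe sets of Per3 disagreed, since 1 gave -0.42 ± 0.05 and passed alone (adjusted p = 0.00216) while the others gave -0.02 and -0.03, and Per3 passed when its probe set with the largest SD stood for the gene. Per1 differed by 0.01 ± 0.12, its ZT19 hearts being spread between -0.60 and -0.06. In all, 17 of the 20 listed genes were measured, 2 rose and 0 fell at the adjusted threshold, 5 were higher and 5 lower without overlap (5.7% and 4.5% of all genes), and the median difference was -0.03.

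Among the clock output genes, 1 fell and 10 of 11 differences were negative. Usp2, a ubiquitin-specific protease whose transcript cycles in many tissues, had -0.66, -0.54 and -0.66 at ZT23, against -0.16, -0.12 and -0.06 at ZT19. It fell by 0.50 on the log2 scale (SE 0.08, adjusted p = 0.015 in limma), and its lowest means of the day were at ZT23 and ZT03 (-0.62 ± 0.07 and -0.66 ± 0.00, SD, n = 3). Its 2 probe sets gave -0.61 and -0.40, and neither passed alone (adjusted p = 0.242 and 0.0747). Under quantile normalization Usp2 differed by -0.48 and did not pass (adjusted p = 0.191). Of the 11 measured members of the list, 0 rose and 1 fell. The ZT23 hearts lay below the ZT19 hearts without overlap in 6 members (4.5% of all genes) and above them in 0, and the median difference was -0.20.

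The PAR-domain factors, which bind D-boxes, had negative differences that did not pass. Tef had -0.33, -0.28 and -0.34 at ZT23, against -0.09, -0.15 and -0.12 at ZT19 (adjusted p = 0.341). Dbp had -0.88, -0.91 and -1.03 at ZT23, against -0.69, -0.53 and -0.70 at ZT19 (adjusted p = 1). Both were apart between the times, as was Hlf at -0.25 ± 0.08 (SE, n = 3 each). Nfil3, the repressor that competes for the same D-boxes, differed in the same direction, with 0.21, 0.31 and 0.35 at ZT23 against 0.50, 0.61 and 0.39 at ZT19. Wee1, a clock-driven kinase that holds back mitosis, differed by -0.32 ± 0.08 (adjusted p = 0.365).

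**Figure D2:**
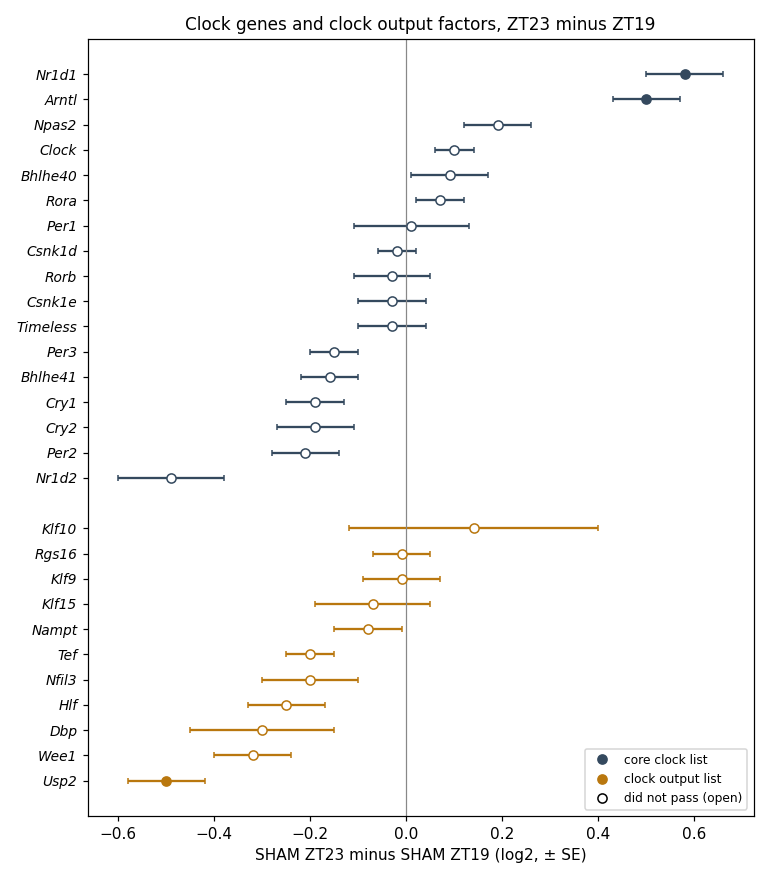
Difference of SHAM ZT23 minus SHAM ZT19 (log2, horizontal axis, with SE) for the 17 measured core clock genes and the 11 measured clock output genes. Filled points passed the test (Nr1d1 0.58, Arntl 0.50, Usp2 -0.50), and 10 of the 11 output genes lie below 0.

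The remaining 2 risers lie outside the lists. Adam19, a membrane metalloprotease needed for heart septum and valve formation in mouse embryos, had 0.81, 0.88 and 1.05 at ZT23, against 0.04, 0.22 and -0.04 at ZT19. It rose 1.79-fold, with a difference of 0.84 ± 0.09 (SE, n = 3 each) and an adjusted p of 0.000596 in limma, and its 2 probe sets gave 0.86 and 0.82. High values were found at ZT23 and ZT03 (0.91 ± 0.12 and 0.82 ± 0.11, SD, n = 3), while the means from ZT07 to ZT19 lay between -0.27 and 0.07. The steps on either side did not pass, with 0.18 for ZT19 minus ZT15 and -0.09 for ZT03 minus ZT23.

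Slc41a3, a member of a magnesium transporter family, had 0.48, 0.71 and 0.45 at ZT23, against -0.04, -0.03 and -0.17 at ZT19. The difference was 0.63 ± 0.07 (SE, n = 3 each), a 1.54-fold rise (limma, adjusted p = 0.000938). Its 3 probe sets shared the sign but not the size, at 0.70, 0.32 and 0.86. Slc41a3 had its lowest mean at ZT15 (-0.50 ± 0.04, SD, n = 3) and had already risen by ZT19 (0.42 in that step, adjusted p = 0.0206).

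Ier3, an immediate early gene whose product affects cell survival under stress, had the largest fall. Its values were -0.51, -0.41 and -0.24 at ZT23, against 0.21, 0.63 and 0.55 at ZT19. It fell by 0.84 on the log2 scale (SE 0.09, n = 3 each), 1.80-fold, with an adjusted p of 0.000596 in limma. The mean had been similar at ZT15 and ZT19 (0.44 ± 0.07 and 0.46 ± 0.22, SD, n = 3) and was -0.70 ± 0.04 at ZT03. Of 26 immediate early genes, Ier3 alone passed (0.0726% of all genes passed), 4 were lower without overlap (4.5% of all genes) and 0 higher (5.7%), and the list's median was -0.03. Ier5 had -0.25, -0.09 and -0.12 at ZT23, against 0.00, 0.16 and 0.14 at ZT19, and did not pass (adjusted p = 0.232).

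Herpud1, which encodes a membrane protein of endoplasmic reticulum-associated degradation, had -0.52, -0.55 and -0.53 at ZT23, against 0.03, -0.03 and 0.18 at ZT19. The ZT23 hearts were nearly alike. Herpud1 fell by 0.59 (SE 0.08, adjusted p = 0.00153 in limma), 1.51-fold, and its 2 probe sets gave -0.55 and -0.64. The fall had begun in the step before (-0.37, adjusted p = 0.0466), from the highest mean of the day at ZT15 (0.43 ± 0.10, SD, n = 3). No other of the 26 measured genes of the endoplasmic reticulum stress list passed, and the list's median was -0.02. Ddit3, which encodes the stress factor CHOP, had -0.11, 0.02 and -0.02 at ZT23, against 0.04, 0.20 and 0.10 at ZT19, a difference of -0.15.

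The other 2 fallers were smaller in size. Dusp16, a phosphatase that inactivates MAP kinases, had -0.14, -0.16 and -0.06 at ZT23, against 0.21, 0.27 and 0.46 at ZT19, and fell by 0.43 (SE 0.07, limma, adjusted p = 0.0157). Ciapin1, a factor of cytosolic iron-sulfur cluster assembly, had -0.02, 0.02 and -0.13 at ZT23, against 0.25, 0.26 and 0.26 at ZT19, and fell by 0.30 (SE 0.05, adjusted p = 0.0226). Both had their highest mean of the day at ZT19. Of the 2 Ciapin1 probe sets, that with -0.38 passed alone (adjusted p = 0.00612) and that with -0.22 did not (0.952), and Ciapin1 overlaps Coq9 in the RefSeq annotation.

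**Figure D3:**
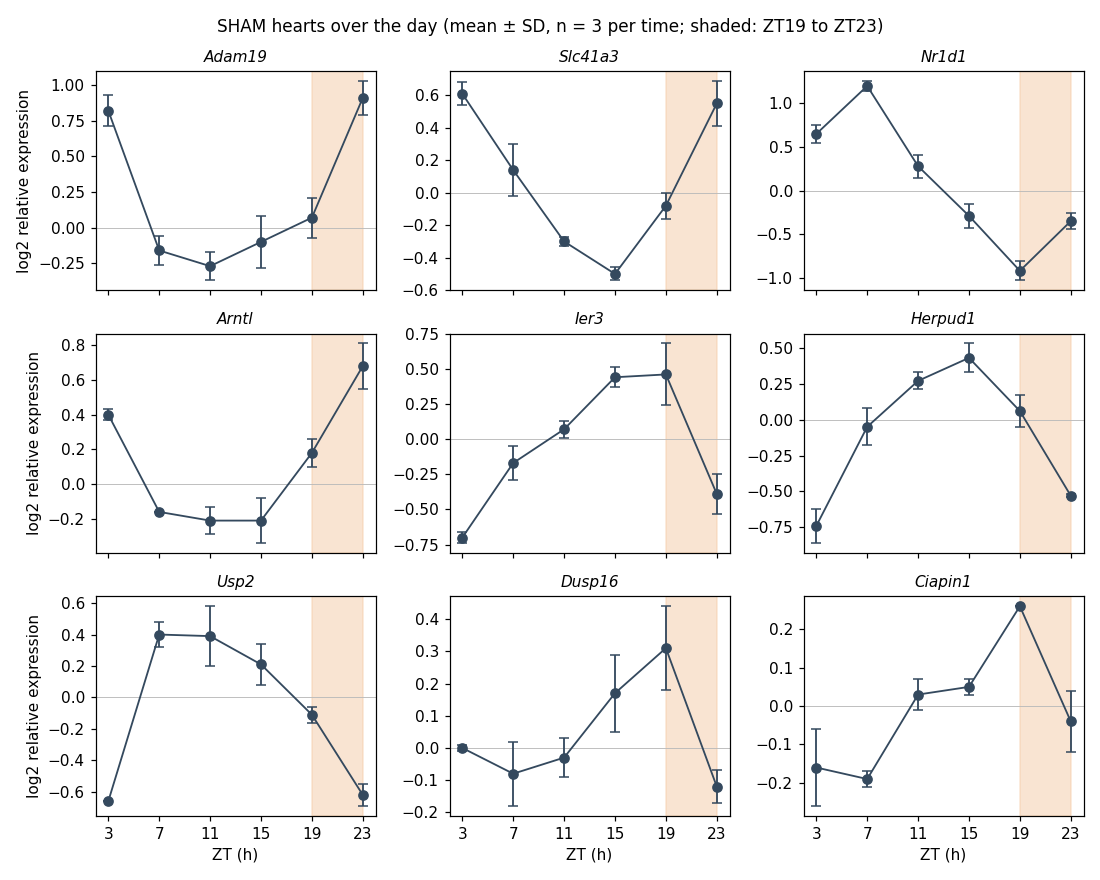
Mean relative expression (log2, vertical axis) of the 9 passing genes in SHAM hearts against ZT in hours, with SD bars (n = 3 mice per time) and the step from ZT19 to ZT23 shaded. Arntl and Adam19 have their highest mean at ZT23, and Nr1d1 its lowest at ZT19 (-0.92 ± 0.11).

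The calls did not all rest equally on the 6 hearts. Adam19, Slc41a3, Nr1d1, Arntl, Ier3 and Herpud1 passed in each of the 6 fits without 1 of these hearts. Dusp16 passed in 2 of 6, with adjusted p-values of 0.0882, 0.132, 0.0653 and 0.116 without ZT23 replicate 1, ZT23 replicate 2, ZT19 replicate 2 and ZT19 replicate 3. Usp2 also passed in 2 of 6, with 0.0882, 0.0981, 0.0821 and 0.116 without ZT23 replicate 1, ZT23 replicate 3, ZT19 replicate 2 and ZT19 replicate 3. Ciapin1 passed in 1 of 6, with 0.0775 and 0.193 without ZT23 replicates 1 and 3 and 0.105, 0.147 and 0.122 without ZT19 replicates 1, 2 and 3. The sign of each of the 9 genes was the same in all 21 alternatives that gave it a value. Most of these could not change a sign. Other spreads leave the difference as it is, and leaving out or weighting hearts cannot reverse it where the times do not overlap. Only other normalizations and probe set rules could have done so. When the spread was taken from all 36 arrays, only Adam19, Slc41a3 and Arntl passed.

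With the 9 genes included, 428 genes (3.45%) had an unadjusted p under 0.05, of which 238 (1.92%) were higher and 190 (1.53%) lower. The 5 next risers by p did not pass. They were Prkab1, a subunit of the energy sensor AMPK (0.30 ± 0.06, adjusted p = 0.136), the hypoxia factor gene Hif1a (0.26 ± 0.05, 0.155), Tnfaip2 (0.34 ± 0.08, 0.217), the splicing factor gene Srsf5 (0.41 ± 0.09, 0.217) and Thra, given above (SE, n = 3 each). Srsf5 had -0.09, -0.03 and -0.24 at ZT23, against -0.47, -0.52 and -0.61 at ZT19. Hif1a had 4 probe sets that disagreed, at 0.30, 0.40, 0.40 and -0.07, of which 1 passed alone.

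Extracellular matrix genes had mostly positive differences. Of 30 measured genes of the interstitial matrix list, 0 passed, 9 were higher without overlap (5.7% of all genes) and 1 lower, 24 differences were positive, and the median was 0.08. Col3a1, a fibrillar collagen, had 0.32, 0.32 and 0.54 at ZT23, against -0.01, 0.05 and -0.12 at ZT19 (adjusted p = 0.535). Its probe sets shared the sign but not the size, at 0.64 and 0.21. Col6a3, of the microfibrillar collagen that borders muscle cells, had 0.27, 0.29 and 0.43 at ZT23, against -0.05, 0.01 and -0.01 at ZT19 (adjusted p = 0.259). In both genes all ZT23 hearts lay above all ZT19 hearts, as they did in Col1a1, Col6a1 and Loxl1, an enzyme that crosslinks elastin. Timp3, an inhibitor of matrix proteases, was the member with the opposite pattern, at -0.52, -0.40 and -0.33 at ZT23 against -0.06, -0.01 and -0.09 at ZT19 (adjusted p = 0.117). The mean of the 8 fibroblast markers, which include Col1a1, Col1a2 and Col3a1, was 0.13, 0.08 and 0.19 at ZT23, against 0.01, 0.09 and -0.04 at ZT19. Of their 8 differences 7 were positive. Col1a1 and Col3a1 were higher without overlap and Tcf21 was lower (5.7% and 4.5% of all genes). The part of fibroblast content in the matrix values was not tested.

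Genes induced by glucocorticoids had mostly negative differences. Of 22 measured members, 0 passed, 7 were lower without overlap (4.5% of all genes), 0 higher, and the median was -0.07. Tsc22d3, a direct target that encodes the leucine zipper protein GILZ, had -0.35, -0.32 and -0.23 at ZT23, against 0.19, -0.04 and 0.01 at ZT19 (adjusted p = 0.504). The probe sets of Tsc22d3 gave -0.43, -0.49 and -0.14. Mt2, a metallothionein, had -0.28, -0.50 and -0.44 at ZT23, against -0.06, -0.16 and -0.20 at ZT19. Fkbp5, a co-chaperone of the receptor, had the widest spread, with -0.06, -0.22 and -0.63 at ZT23 against 0.25, 0.00 and 0.28 at ZT19. These 3 genes were apart between the times and did not pass.

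Among cytosolic heat shock chaperones, most differences were negative. Of 24 measured, 0 passed, 3 were lower without overlap (4.5% of all genes) and 0 higher (5.7%), 18 differences were negative, and the median was -0.06. Over all genes 51.6% of the differences were positive (6397 of 12393), and 6147 of 12393 were under quantile normalization. Dnajb4, a partner of HSP70, had -0.15, -0.27 and -0.17 at ZT23, against 0.03, 0.20 and 0.24 at ZT19. Its adjusted p was 0.099, and it passed when each array was centred on its median. Dnaja1 and Hsp90aa1 differed by -0.23 ± 0.10 and -0.14 ± 0.09 (SE, n = 3 each) and overlapped between the times.

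In the Z-disc and sarcomere list, 21 of 27 differences were negative, 5 genes were lower without overlap (4.5% of all genes) and 0 higher (5.7%), and 0 passed. Tcap, which anchors titin at the Z-disc, had -0.65, -0.67 and -0.85 at ZT23, against -0.35, -0.38 and -0.30 at ZT19 (adjusted p = 0.535). Acta1, the skeletal actin of striated muscle, overlapped, with -0.29, -0.89 and 0.03 at ZT23 against -0.11, 0.44 and -0.13 at ZT19. The mean of the 12 cardiomyocyte markers was 0.08, -0.03 and 0.02 at ZT23, against 0.03, 0.07 and 0.01 at ZT19.

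Genes of oxidative phosphorylation, the tricarboxylic acid cycle and the ribosome had small differences, while single genes of fuel use differed more without passing. None of the 36 oxidative phosphorylation genes, the 20 genes of the tricarboxylic acid cycle or the 26 cytosolic ribosomal protein genes passed or had an unadjusted p under 0.05. Differences below 0.1 were found in 35 of the 36 oxidative phosphorylation genes, 19 of the 20 cycle genes and all 26 ribosomal protein genes. In the fatty acid and sterol synthesis list, 17 of 20 differences were positive, with a median of 0.05, and 1 gene was higher without overlap. Of 21 genes of the fasting response, 2 were higher without overlap and 0 passed. Both counts are near the 5.7% of all genes that were higher without overlap. Ucp3, a mitochondrial carrier of that list, had -0.05, 0.03 and -0.08 at ZT23, against -0.28, -0.44 and -0.31 at ZT19. G0s2, an inhibitor of triglyceride lipase, had 0.12, 0.58 and 0.41 at ZT23, against 0.67, 0.83 and 0.77 at ZT19. Of 20 measured genes of glucose uptake and glycolysis, 0 passed, and the list's median was -0.01. In 4 of them the unadjusted p in limma was under 0.05 (3.45% of all genes), 2 higher and 2 lower. Pfkp and Pfkfb2, which encode enzymes at the phosphofructokinase step, were among the 4, at 0.20 ± 0.07 each. So was Pgam1, a phosphoglycerate mutase gene, at -0.26 ± 0.12 (SE, n = 3 each). The mean of the white adipocyte markers varied between mice within each time, at -0.38, 0.61 and 0.41 at ZT23 and 0.35, -0.43 and 0.10 at ZT19.

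**Figure D4:**
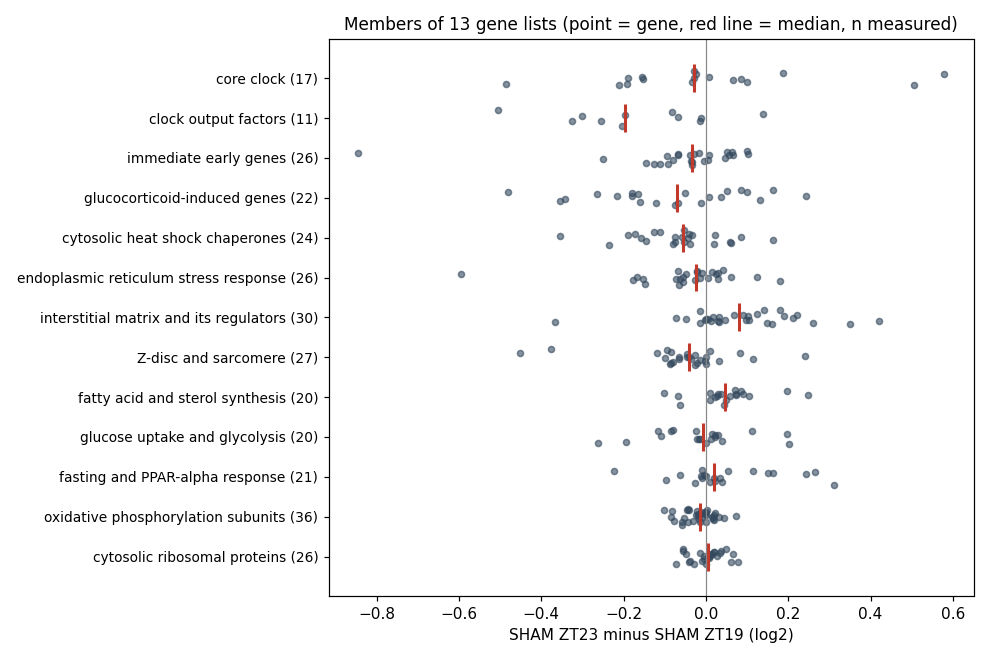
Difference of SHAM ZT23 minus SHAM ZT19 (log2, horizontal axis) for the measured members of 13 gene lists, 1 point per gene, with the list's median as a red line and the number measured in brackets. Medians lie between -0.20 (clock output factors) and 0.08 (interstitial matrix), and the ribosomal and oxidative phosphorylation genes gather near 0.

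The step from ZT19 to ZT23 was set beside the other 4-h steps of the SHAM hearts, which share arrays with it at ZT19 and ZT23. At the same threshold 1 gene (0.00807%) passed from ZT23 to ZT03, 325 (2.62%) from ZT03 to ZT07, 22 (0.178%) from ZT07 to ZT11, 18 (0.145%) from ZT11 to ZT15 and 36 (0.29%) from ZT15 to ZT19. The median absolute difference was 0.036 between ZT23 and ZT19 and between 0.037 and 0.066 in the other steps. The largest, 0.066, belonged to the step from ZT23 to ZT03, in which 1 gene passed. In that step 1836 genes (14.8%) had an unadjusted p under 0.05 in limma, against 428 (3.45%) from ZT19 to ZT23. The counts of genes that passed thus do not rank the steps by the size of their differences. In the other steps 16 to 55 genes differed by at least 1.5-fold, or 11 to 55 without SHAM ZT11 replicate 3. Between ZT23 and ZT19, 10 genes did. Besides Adam19, Slc41a3, Ier3 and Herpud1 these 10 included Chd6, a chromatin remodeller (-0.65 ± 0.13, SE, n = 3 each, adjusted p = 0.13), and 5 genes of airway or fat (Scgb1a1, Cyp2f2, Bpifa1, Adipoq and Ucp1).

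Some arrays carried transcripts of tissues other than ventricle. Airway markers had a mean of 0.77 in ZT23 replicate 3, against -0.04 and 0.01 in the other ZT23 hearts and 0.00 to 0.03 at ZT19. Scgb1a1, Cyp2f2 and Bpifa1 were at 3.41, 1.96 and 3.88 in that heart and at 0.06 or below in the other 5 SHAM hearts of these times. Among TAC hearts, ZT23 replicate 1 had 5.18 for Scgb1a1 and 2.62 for Cyp2f2. Without SHAM ZT23 replicate 3, 7 genes passed between SHAM ZT23 and SHAM ZT19, all among the 9. SHAM ZT11 replicate 3 had a mean of 2.22 for T cell and thymocyte markers and the largest spread around its group (SD 0.166, against 0.060 to 0.106 in the other SHAM arrays). It entered the comparison only through the shared spread, and without it the 9 genes passed along with Dnajb4, P2ry1 and Srsf5. Adipoq varied between mice of the same time by more than 2 on the log2 scale at ZT23 and at ZT19. Ucp1 did so at ZT23 (-0.67, 2.07 and 0.71) but not at ZT19 (0.33, -0.66 and -0.25). The 8 atrial markers had a median difference of -0.26, with 7 of 8 negative, and their mean was -0.08, -0.32 and 0.23 at ZT23, against 0.15, 0.13 and 0.22 at ZT19. The times overlapped in all 8 of them, and the part of atrial tissue in the other values was not tested. No marker of another cell type passed.

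The same step was measured in TAC hearts, taken at the same times 8 weeks after constriction. With the spread of all 36 arrays, under which 3 genes passed in SHAM hearts, 112 genes (0.904%) passed between ZT23 and ZT19 in TAC hearts. Atrial markers were among genes that fell there, with Myl7, an atrial myosin light chain, at -1.30, -2.81 and -2.70 in TAC hearts at ZT23, against 0.99, 0.75 and 0.04 in TAC hearts at ZT19 (difference -2.87 ± 0.38, limma, adjusted p = 0.000292). Sln, Myl4 and Stard10 also fell in TAC hearts, by 1.49, 1.42 and 1.25, and the part of atrial tissue in the TAC calls was not tested. Of the 9 genes called in SHAM, 8 had the same sign in TAC. The share of all genes with the same sign in both was not counted, so the 8 have no background to be read against. Herpud1 passed in TAC hearts at -0.68 ± 0.14 and differed by -0.59 ± 0.14 in SHAM hearts (SE from the fit of all 36 arrays, n = 3 each). In that fit the SHAM step of Herpud1 did not pass (limma, adjusted p = 0.271). Adam19 differed by 0.28 ± 0.12 in TAC hearts and 0.84 ± 0.12 in SHAM hearts, and the difference between these steps did not pass (-0.57 ± 0.17, limma, adjusted p = 0.615). Slc41a3 differed by 0.23 ± 0.09 in TAC hearts and 0.63 ± 0.09 in SHAM hearts (difference -0.40 ± 0.12, adjusted p = 0.615). For Arntl the values were 0.26 ± 0.09 in TAC hearts and 0.50 ± 0.09 in SHAM hearts, and for Nr1d1 0.39 ± 0.11 in TAC hearts and 0.58 ± 0.11 in SHAM hearts.

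Ier3 was the exception. In TAC hearts it had 0.53, 0.18 and 0.59 at ZT23, against 0.11, -0.35 and -0.55 at ZT19, a difference of 0.70 ± 0.18 (SE, n = 3 each), opposite in sign to that of SHAM hearts. The TAC step alone did not pass (adjusted p = 0.0603). The difference between the steps, TAC minus SHAM, was 1.54 ± 0.26 and passed (limma interaction term over 36 arrays, adjusted p = 0.0206). Ier3 was the 1 gene (0.00807%) that did so, while 642 (5.18%) had an unadjusted p under 0.05. Its size lay between 1.39 and 1.82 in 17 alternatives. The call was lost, with adjusted p-values of 0.0591, 0.112 and 0.168, without TAC ZT23 replicate 3, TAC ZT19 replicate 2 or TAC ZT19 replicate 3, and with 0.129, 0.0873, 0.143 and 0.0572 without SHAM ZT23 replicate 1, SHAM ZT23 replicate 2, SHAM ZT19 replicate 2 or SHAM ZT19 replicate 3.

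**Figure D5:**
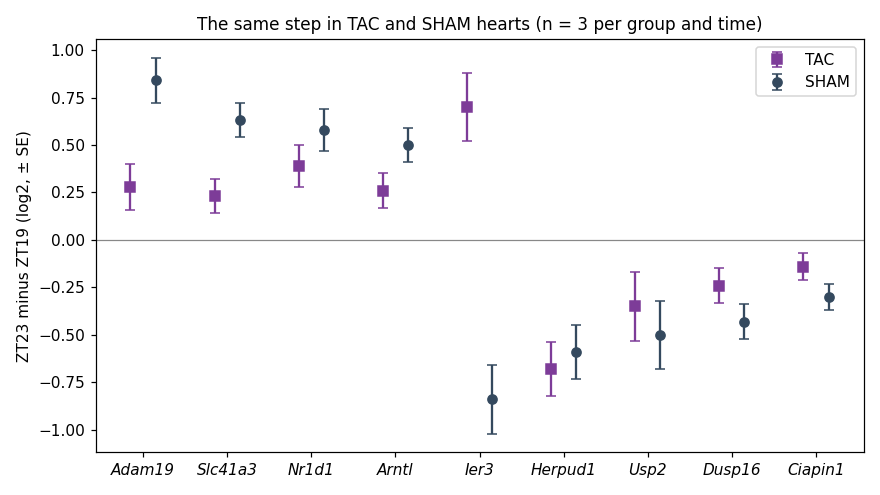
Difference of ZT23 minus ZT19 (log2, vertical axis) in TAC hearts (squares, left) and SHAM hearts (circles, right) for the 9 genes that passed in SHAM, with SE from the fit of all 36 arrays (n = 3 mice per group and time). Only Ier3 has opposite signs (0.70 in TAC, -0.84 in SHAM).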

How the data were processed

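Messenger RNA of mouse left ventricle was measured on 36 Affymetrix arrays. Per the labels' protocols, RNA was extracted with Trizol from frozen hearts and labelled with biotin. The deposited table holds 22690 probe sets with relative values, which were read as log2. How the authors summarised and normalized them, and the log base, is not given in the sources used here. Because the values were centred before deposit, no filter on level and no intensity trend was used.

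Of the probe sets, 20393 had 1 gene symbol in the platform annotation (13 were controls and dropped), 691 had more than 1 and 1606 had no entry. Symbols were updated through Entrez identifiers (20351 of 20380 matched, 0 changed). Averaging the probe sets of each gene gave 12393 genes, 4956 of them with several. Array medians ranged from -0.036 to 0.027, and 0 pairs of arrays were identical. Groups came from the sample titles. The number of arrays limits the precision.

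Means of the 6 SHAM times were fitted with limma 3.58.1 in R 4.3.3 (eBayes without trend), and ZT23 minus ZT19 was tested with Benjamini-Hochberg adjustment over all genes at 0.05. The difference from TAC used 12 means over 36 arrays. The fit was tested on simulated data. Gene lists (28 of pathways, 18 of markers) are described by counts and medians only. The comparison and the lists were chosen with earlier results of these data known. Named were all genes that passed, the 5 next risers by p, every measured clock and clock output gene, up to 6 genes of each other list by p, up to 3 of each marker list, and up to 5 genes by the TAC difference; Bpifa1, Chd6 and genes named only as called under an alternative were chosen after their values were seen. Same-numbered ZT23 and ZT19 mice deviated with correlations of -0.17, -0.15 and 0.09, so replicate numbers were not taken as pairs. Alternatives were other normalizations, weights, spreads, probe set rules, thresholds and arrays left out.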

Additional observations from a re-analysis of the deposited data

Results flagged for a closer look

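Ier3 was singled out because its ZT23 minus ZT19 step differed between TAC and SHAM hearts by a test of the difference itself. The TAC step minus the SHAM step was 1.54 ± 0.26 (SE, n = 3 mice per group and time; limma interaction term, adjusted p = 0.0206), with 3 of 3 TAC hearts at ZT23 above all TAC hearts at ZT19 and 3 of 3 SHAM hearts at ZT23 below all SHAM hearts at ZT19. It passed in 9 of 17 alternatives, among them quantile normalization (1.82, adjusted p = 0.00184), the replicate block (adjusted p = 0.0234) and the fit without TAC ZT23 replicate 1 (0.0281), the TAC array of these times whose airway markers had a mean above 1. It did not pass with the 12 arrays of ZT23 and ZT19 alone (0.0939), without TAC ZT23 replicate 3 (0.0591), TAC ZT19 replicate 2 (0.112) or TAC ZT19 replicate 3 (0.168), or without SHAM ZT23 replicate 1 (0.129), SHAM ZT23 replicate 2 (0.0873), SHAM ZT19 replicate 2 (0.143) or SHAM ZT19 replicate 3 (0.0572). Groups of 3 are too small for a search for single outlying arrays.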

How the results depend on the processing

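The count of 9 genes between SHAM ZT23 and SHAM ZT19 became 44 with array weights, 3 with the spread of all 36 arrays and 4 with a minimum fold of 1.5, and members of gene lists that passed, 5 in all, became 14, 1 and 2. Leaving out hearts of ZT23 and ZT19, singly or by replicate number, gave 0 to 10 genes and 0 to 6 list members: fits without 1 heart of these times gave 6 to 10 genes, and fits without every SHAM mouse numbered 1, 2 or 3 gave 2, 0 and 5. At the count of 0, without replicate number 2, 272 genes had an unadjusted p under 0.05 in limma, the fit having 2 mice per time. No other tool was run. The count was 11 with quantile normalization, 8 with the 6 arrays alone, 12 without SHAM ZT11 replicate 3 and 13 without all SHAM ZT11 arrays (7 list members in both), the last chosen after seeing the data. With the replicate block 10 genes passed, the 9 and Ier5. The count for the difference between TAC and SHAM, 1 gene, became 89 with array weights and 0 to 4 without single hearts, and remained 1 with the replicate block. Without SHAM ZT11 replicate 3, the step from ZT23 to ZT03 gave 4 genes in place of 1 and that from ZT07 to ZT11 gave 11 in place of 22. The cause of these shifts was not tested, beyond fewer arrays where arrays were left out. No called difference changed sign, though only other normalizations and probe set rules could have changed one. The median of each list described above also kept its sign under quantile normalization and under centring of each array. The median over all genes went from 0.002 to -0.001 under quantile normalization. Passing in the 21 alternatives were Adam19 in 20, Slc41a3 and Ier3 in 19, Arntl, Nr1d1 and Herpud1 in 17, Dusp16 in 12, and Usp2 and Ciapin1 in 10. An eBayes trend on level was not run, because the centred values keep no level, and signal over background is not known here.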

Other observations

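The 11 measured macrophage markers were split between SHAM ZT23 and SHAM ZT19, with 5 positive and 6 negative differences and a median of -0.01. Of these, 3 were lower without overlap (4.5% of all genes), 0 were higher and 0 passed. Cd163, a scavenger receptor for haemoglobin complexes, had -0.37, -0.40 and -0.35 at ZT23, against 0.04, -0.15 and 0.11 at ZT19 (difference -0.37 ± 0.09, SE, n = 3 each, limma adjusted p = 0.257). Lyve1, a hyaluronan receptor, and F13a1, a transglutaminase subunit, differed by -0.26 ± 0.11 and -0.22 ± 0.09. The mean of the 11 markers was -0.02, -0.12 and 0.04 at ZT23, against 0.00, 0.05 and 0.05 at ZT19, so the list as a whole overlapped.

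Single genes of other lists were apart between the times. Of those counted here only Usp2, given above and also a member of the autophagy and ubiquitin ligase list, passed. Of all genes, 5.7% were higher and 4.5% lower without overlap. In the autophagy and ubiquitin ligase list 2 were higher and 2 lower of 21 measured, and in the insulin signalling list 1 and 2 of 21. In the calcium handling list 0 were higher and 1 lower of 16, and in the splicing factor list 3 and 2 of 26. Fbxo32, a ubiquitin ligase of muscle wasting, had -0.23, -0.40 and -0.02 at ZT23, against -0.50, -0.48 and -0.63 at ZT19. Irs1, the adaptor of the insulin receptor, had 0.17, 0.53 and 0.47 at ZT23, against -0.05, 0.07 and 0.05 at ZT19, while Pik3r1, the regulatory subunit of the kinase it recruits, had -0.56, -0.23 and -0.33 at ZT23, against 0.01, 0.18 and -0.21 at ZT19. Cacnb2, a subunit of the L-type calcium channel, had 0.15, -0.01 and -0.14 at ZT23, against 0.49, 0.31 and 0.26 at ZT19. Srsf10, a splicing factor, differed by -0.27 ± 0.07, against 0.41 ± 0.09 for Srsf5 (SE, n = 3 each).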
